A study of Mus musculus with 8 samples.

Results

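The regions described here are the H3K27ac peaks that were found only after C28. They were chosen by the readout itself: every peak of the list from C28-treated cells, on chromosomes 1 to 19 and X, that overlapped no peak of the control list by 1 bp or more. That left 3562 of 21713 peaks, which is 16.4% (95% Wilson interval 15.9% to 16.9%, counting error only). They covered 1.79 Mb, 9.45% of the 18.96 Mb under all peaks of that list. Another 63 peaks of the C28 list lay on other sequences and were not considered.

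The series compared cultured mouse cells of C57BL/6 background, labelled female germline stem cells, after 3 h of C28 with control cells. C28 is a code name, written 028 on the samples, and its dose is not given in the sources used here. H3K27ac was profiled by chromatin immunoprecipitation sequencing in 1 C28 library and 1 control library, and RNA in 3 C28 libraries and 3 libraries labelled DMSO, the solvent. Peaks were listed per library, and the control list carries DMSO in its name, while its sample is labelled control. With 1 H3K27ac library per group no difference between the lists has a replicate check, so none is tested, and intervals on peak values cover counting error only.

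H3K27ac is histone H3 acetylated at lysine 27. The acetyl group is written mainly by the related enzymes p300 and CBP and removed by histone deacetylases, and it marks active promoters and active enhancers, the distal elements that raise transcription of a gene. The same lysine can instead be methylated by Polycomb complexes, a mark of silenced genes. An acetylated region is bound by bromodomain proteins that help RNA polymerase II to start and elongate.

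Each peak carried the authors' fold enrichment and −log10 p. From these 2 values the number of sequenced fragments over the summit, the highest point of the peak, and the number expected there were recovered, as described under processing. The recovered fragment number was whole, within 0.01, for all but 4 of the 21713 C28 peaks, and for all of the C28-only ones. Reads without molecular identifiers are not independent molecules, so intervals on these numbers cover counting error only. The control list gives no value where it has no peak, so the control level beneath a C28-only peak is not known and is not taken as 0.

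C28-only peaks were low. Over the 3562 peaks the summit held a median of 15 fragments (quartiles 12 and 20, range 8 to 558), where a median of 2.202 was expected (quartiles 1.61 and 3.40). The C28 peaks shared with control held a median of 42 (quartiles 24 and 71), so the upper quartile of the C28-only peaks lay below the lower quartile of the shared ones. The authors' fold enrichment had a median of 4.70 in the C28-only peaks and 6.68 in the shared ones, and their median −log10 q was 5.94 against 19.7. A summit of 15 fragments has an exact 95% Poisson interval of 8.40 to 24.7. Most C28-only peaks are therefore known individually to no better than about this span.

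The expected number had a floor in each list, its lowest value, and 420 C28-only peaks (11.8%) sat on it, against 1.64% of the shared peaks. That floor was 1.34 fragments in the C28 list and 2.197 in the control list, 1.64 times higher, and the lowest summits called held 8 and 10 fragments. Depth per library is not given in the sources used here. In 16907 shared peaks that paired 1 to 1, the control summit held a median of 1.53 times the fragments of the C28 summit (quartiles 1.20 and 1.93). The control library thus had more fragments over the same regions, and values below are also given as multiples of the floor of their own list. On that scale the C28-only peaks had a median of 11.2, and the 5693 control peaks that no C28 peak overlapped, called control-only here, a median of 10.01. The effect of this difference in depth on which peaks had a partner was not tested.

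**Figure D1:**
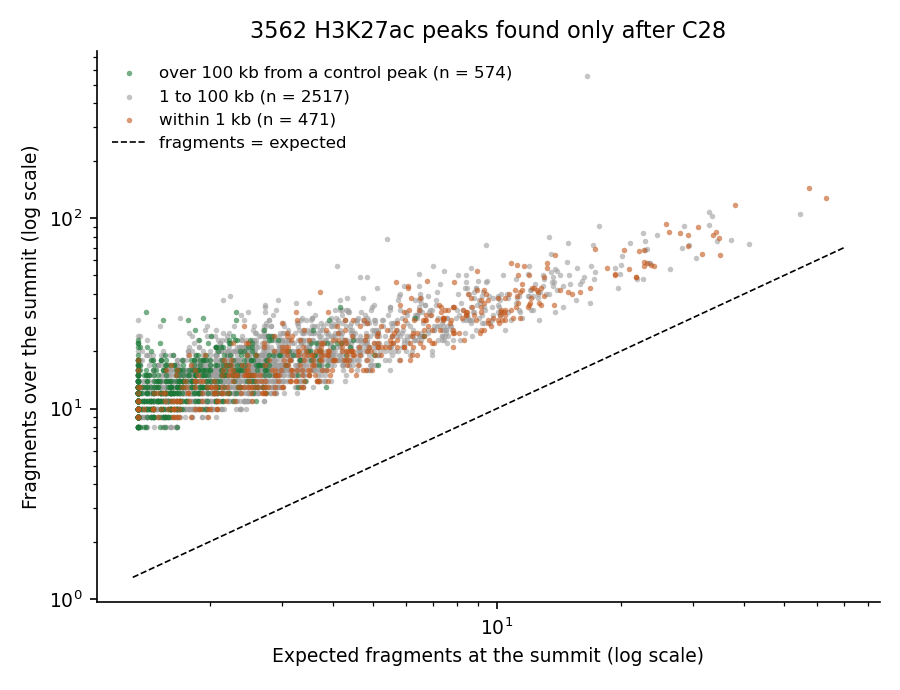
Fragments over the summit against the number expected there, for each C28-only peak, both on log scales, coloured by distance to the nearest control peak; the dashed line marks equality. All peaks lie above the line, the 5th and 95th percentiles of the fragments are 10 and 38, and 1 peak with 558 fragments stands apart.

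The share of C28 peaks that had no control partner fell as the summit rose. Of peaks with 8 to 10 fragments, 414 of 616 were C28-only (67.2%, Wilson interval 63.4% to 70.8%), and of those with 16 to 20 fragments, 833 of 2603 (32.0%, interval 30.2% to 33.8%). At 41 to 60 fragments the share was 2.95% (105 of 3561), and above 100 it was 0.311% (7 of 2253). The control list followed the same course at higher shares, with 43.3% control-only at 21 to 30 fragments against 15.2% C28-only. Equal fragment numbers are lower multiples of the floor in the control list, so these bins are not of equal height. Counted from 20 times the floor upward, 463 of 13282 C28 peaks (3.49%) and 881 of 13088 control peaks (6.73%) were in 1 list only.

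**Figure D2:**
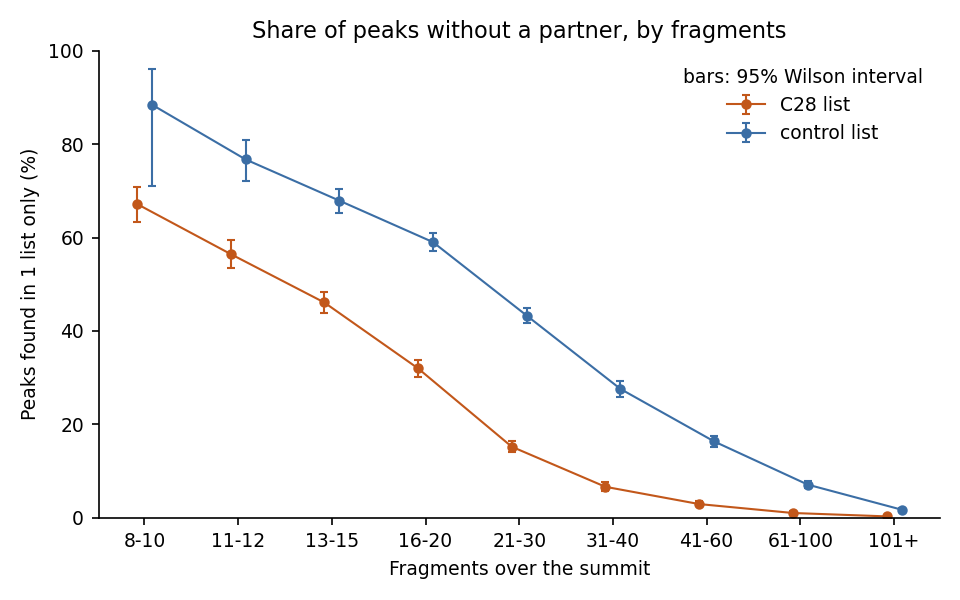
Percentage of peaks found in 1 list only, by fragments over the summit, for the C28 and the control list; bars are 95% Wilson intervals. Both curves fall from over 60% to under 2%, and the C28 curve lies below the control curve in every bin. Equal fragment numbers are lower multiples of the floor in the control list.

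Only a small set of C28-only peaks was high. A −log10 q of at least 10 was reached by 516 of the 3562 (14.5%), at least 20 by 48 and at least 30 by 8. In the control-only peaks the counts at the same limits were 1443, 225 and 48 of 5693, from a library with more fragments.

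The highest C28-only peak lay at chrX:166527217-166527507 (mm9, as are all positions here). It held 558 fragments where 16.6 were expected (Poisson interval 513 to 606), a fold enrichment of 31.8, over 291 bp, 4 bp more than the narrowest C28 peak of 287 bp. The nearest control peak was 80.4 kb away. The next C28-only peak by −log10 q, chr13:112490070-112490364, was also narrow, with 78 fragments against 5.41 expected over 295 bp, and so was chr17:6491990-6492288, with 39 against 2.25 over 299 bp. These 3 reached their height within about the shortest length the list contains.

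Other high C28-only peaks were wide. At chr12:3972887-3973924, 56 fragments stood over the summit of a 1038 bp peak where 4.09 were expected (interval 42.3 to 72.7), 7.12 kb from the nearest control peak. The peak at chr5:107899515-107900643 held 72 fragments against 9.40 over 1129 bp, 2.60 kb from a control peak. These are the widths of ordinary shared peaks, whose median was 891 bp.

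Several of the highest lay next to control signal. The peak at chr1:89544701-89545250 held 80 fragments against 13.4 expected and ended 1.46 kb from a control peak, and chr4:124804631-124805108 held 91 against 17.7 with control peaks 1.77 and 2.91 kb away on its 2 sides. The peak at chr7:142921460-142921858, with 49 fragments, was 1.25 kb from a control peak on 1 side and 1680 kb from the next on the other. The remaining members of the highest 10 were on chromosome 2: chr2:144948716-144949184, with 37 fragments and 12.7 kb from a control peak, and chr2:138660693-138661014, with 32 fragments against 1.40 expected and 331 kb from any control peak.

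Width differed between C28-only and shared peaks, also at similar height. A wider peak is more likely to touch a control peak, so the rule itself favours narrow C28-only peaks. How much of the difference follows from the rule was not tested. C28-only peaks had a median width of 424 bp (quartiles 339 and 582) and shared C28 peaks 891 bp (quartiles 593 and 1226). At summits of 8 to 10 fragments the medians were close, 368 bp and 390 bp, while at 31 to 40 fragments they were 435 bp and 869 bp and at 61 to 100 fragments 451 bp and 1164 bp. The median width thus rose far more with height in the shared peaks than in the C28-only peaks. Of the 320 C28-only peaks with at least 31 fragments, 124 (38.8%, Wilson interval 33.6% to 44.2%) were no wider than 400 bp, against 342 of 11720 shared peaks (2.92%). The higher C28-only peaks also stood on a higher expected value: with at least 31 fragments it had a median of 10.1, and 7.38 in the shared ones. Their median fold enrichment was 3.62 against 7.97. The C28-only share kept falling above 31 fragments, so comparisons from 31 fragments upward are not matched for height.

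Control-only peaks showed part of the same pattern. From 20 to 30 times the floor the median width was 466 bp in the C28-only and 635 bp in the control-only peaks, beside 841 bp and 1060 bp in the shared peaks of the respective lists. Peaks were narrower in the C28 list in general: in 1 to 1 shared pairs the C28 peak had a median of 0.888 times the width of its control partner. The median ratio was 0.669 where the C28 summit held 8 to 12 fragments and 0.929 above 100. How much of this follows from depth or from the shortest length in each list was not tested. The narrowest peaks were 287 bp with C28 and 318 bp in control.

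**Figure D3:**
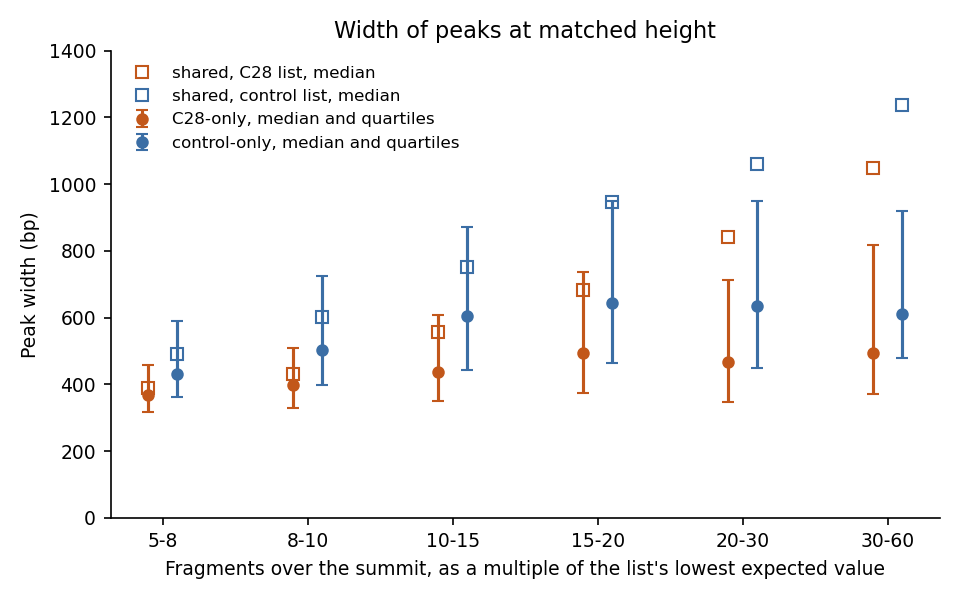
Peak width in bp at matched height, where height is fragments over the summit divided by the lowest expected value of the list; filled circles with bars are medians and quartiles of peaks in 1 list only, open squares medians of shared peaks. Shared peaks widen from 390 to 1048 bp in the C28 list, while the C28-only medians stay between 368 and 495 bp.

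The 5 widest C28-only peaks ranged from 1685 to 1954 bp. The widest, chr1:133079974-133081927, held 56 fragments where 16.9 were expected, 8.09 kb from a control peak. At chr1:43521993-43523677, a width of 1685 bp went with 107 fragments against 32.7 expected. The peak chr14:100023228-100025006 was 1779 bp wide with 29 fragments against 4.26, and no control peak lay within 74.5 kb. At chr4:88880565-88882314 a broad low region of 1750 bp reached just 15 fragments, 183 kb from any control peak. The remaining one, chr19:9056866-9058632, lay 755 bp from a control peak with 36 fragments.

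Most C28-only peaks lay kilobases away from the nearest control peak. The median distance to the nearest control peak was 15.7 kb (quartiles 4.61 and 54.8 kb). Within 1 kb of a control peak lay 471 of the 3562 (13.2%, Wilson interval 12.2% to 14.4%), within 10 kb 1434 (40.3%) and within 100 kb 2988 (83.9%). Control-only peaks sat closer to C28 peaks at long range, with 91.4% within 100 kb (interval 90.7% to 92.1%), but 12.3% lay within 1 kb. More than 100 kb from the other list were 16.1% of C28-only peaks and 8.59% of control-only peaks. The lists differ in length and depth, and the longer control list offers C28-only peaks more neighbours. No adjustment was made for this, and the cause of the difference was not tested.

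Height fell with this distance and fold enrichment rose. Within 1 kb of a control peak, C28-only peaks held a median of 20 fragments against 3.90 expected, with a median fold of 3.96. Beyond 100 kb, 574 peaks held a median of 13 fragments against 1.61 expected, with a median fold of 5.13, and 25.3% of them were on the floor of the expected value, against 2.34% of the near ones. The median −log10 q barely differed, 5.80 near and 6.21 far.

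The 5 farthest lay more than 1 Mb from any control peak, as did 20 C28-only peaks in all. At chr15:23173168-23173495 the nearest control peak was 1892 kb away and 19 fragments stood where 2.79 were expected. The others were chr14:125089135-125089510 (19 fragments, 1706 kb), chrX:59334033-59334322 (15 fragments, 1676 kb), chr1:102127998-102128312 (8 fragments, 1670 kb) and chr15:17088643-17089075 (14 fragments, 1664 kb). Their widths were 290 to 433 bp.

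Of the 471 within 1 kb, 264 had a shared control peak as nearest neighbour and 207 (43.9%, Wilson interval 39.5% to 48.5%) a control-only one. In the latter case each list has a peak that the other lacks, side by side, with a median of 338 bp between them and 805 bp between their summits. The C28-only peaks of these 207 held a median of 17 fragments and their control-only neighbours 21, which are 12.7 and 9.56 times the floors of their lists. Beside shared peaks the C28-only peak held a median of 23.5 fragments and the control neighbour 40.5, or 17.5 and 18.4 times the floors.

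The rule turned on single bases for a few. The nearest without touching were chr19:24514172-24514657, 1 bp from a control peak on 1 side and 19 bp on the other (20 fragments), chr17:33925101-33925437 at 2 bp (12 fragments) and chr3:58972879-58973165 at 3 bp (11 fragments). Just outside the rule, chr2:68268408-68268948 shared 3 bases with a control peak (13 fragments), chr6:52763867-52764232 shared 4 (18 fragments) and chr9:121755998-121756496 shared 5 (16 fragments).

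The C28-only share varied with the distance to the next C28 peak. It was 17.9% within 1 kb (473 of 2643, Wilson interval 16.5% to 19.4%). Of C28 peaks whose next C28 peak was 10 to 25 kb away, 808 of 5590 were C28-only (14.5%, Wilson interval 13.6% to 15.4%). Of those more than 250 kb from the next, 187 of 638 were (29.3%, interval 25.9% to 33.0%). Isolated C28 peaks were also lower, with a median of 21 fragments against 35. At a matched height of 10 to 20 times the floor the share was 33.7% within 1 kb (interval 30.3% to 37.2%) and 34.0% at 1 to 5 kb (29.8% to 38.5%). It was 27.1% at 10 to 25 kb (24.96% to 29.3%) and 36.0% beyond 250 kb (30.2% to 42.2%). At that height the crowded and the most isolated C28 peaks thus had overlapping intervals, and the lower shares lay between them.

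In the control list at that height the share was also raised within 1 kb, at 48.7% (interval 45.2% to 52.2%), against 31.9% at 10 to 25 kb (29.6% to 34.2%). Beyond 250 kb it was 22.9% (interval 17.3% to 29.8%). At 5 to 10 times the floor the control share was not raised within 1 kb. It was 59.4% there (interval 53.6% to 65.0%), 65.6% at 10 to 25 kb (62.9% to 68.1%) and 45.4% beyond 250 kb (38.8% to 52.2%). The C28-only shares at that lower height were 59.7% (interval 51.6% to 67.4%), 51.9% (47.9% to 55.8%) and 69.5% (61.5% to 76.5%) at the same spacings. Without matching for height, control-only peaks were 23.1% both at 10 to 25 kb and beyond 250 kb, and 32.1% within 1 kb.

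**Figure D4:**
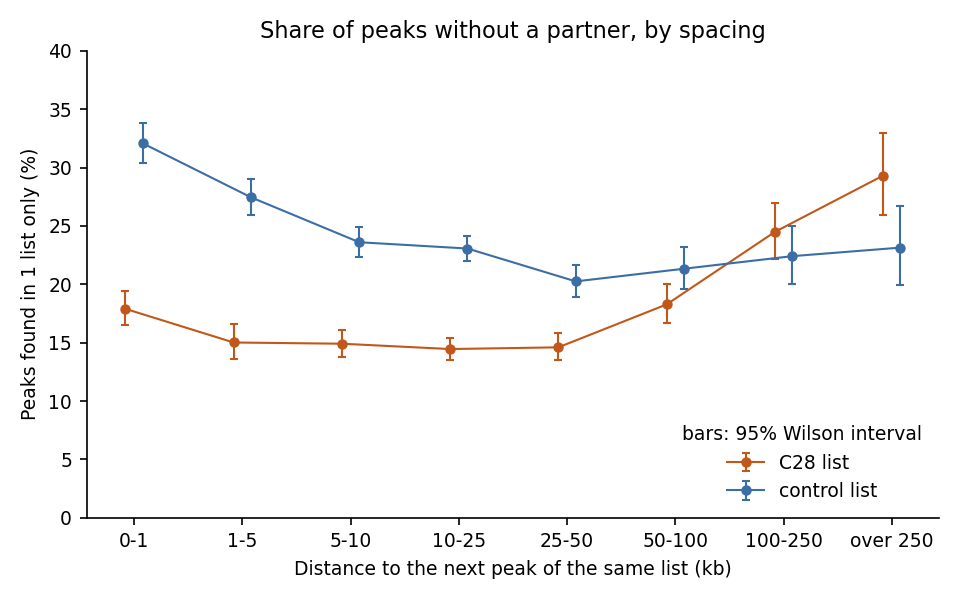
Percentage of peaks found in 1 list only against the distance to the next peak of the same list in kb, for the C28 and the control list; bars are 95% Wilson intervals. The C28 curve starts at 17.9% below 1 kb, dips to 14.5% at 10 to 25 kb and reaches 29.3% beyond 250 kb; it lies above the control curve from 100 kb on (24.5% against 22.4% at 100 to 250 kb), and the control curve is highest below 1 kb.

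Most C28-only peaks had no other C28-only peak within 10 kb, and no baseline for this was counted in shared peaks. With up to 10 kb between neighbours, 3156 stood alone, 186 runs held 2, 10 runs held 3 and 1 run held 4. In the control-only set, 1117 of 5693 peaks were in such runs, against 406 of 3562 here. The control-only set is larger, which alone brings more of its peaks within 10 kb of each other, and no adjustment was made for this. The nearest other C28 peak was itself C28-only for 24.6% of the C28-only peaks and 14.4% of the shared ones. Of all C28 peaks 16.4% were C28-only, so C28-only peaks had each other as nearest neighbour more often than that share. The cause was not tested.

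The run of 4 spanned 5.20 kb at chr1:89445871-89451073, with no control peak and no shared peak inside it and the nearest control peak 53.1 kb away. Its peaks held 28, 28, 36 and 28 fragments where 8.66, 9.18, 9.08 and 7.37 were expected. They were 296 to 476 bp wide with folds between 2.85 and 3.67. The highest had a Poisson interval of 25.2 to 49.8. Further along the same chromosome stood the high peak at chr1:89544701-89545250 named above.

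Counted in fixed windows of 100 kb, 2466 windows held 1 C28-only peak, 428 held 2, 68 held 3 and 9 held 4, the most found. Among these 9, the run on chromosome 1 had the highest summed fragments, 120. The window from 116300001 on chromosome 4 followed with 104, and held 4 shared peaks as well and no control-only peak. The window from 80400001 on chromosome 10 held 4 C28-only and 5 control-only peaks beside 1 shared C28 peak. The windows from 61900001 on chromosome 15 and 151900001 on chromosome 1 completed the 5 with the highest sums, at 67 each.

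C28-only peaks lay on all 20 chromosomes considered. Chromosome 14 had the highest share, 182 of 846 C28 peaks (21.5%, Wilson interval 18.9% to 24.4%), followed by chromosome 1 (280 of 1446, 19.4%) and chromosome 3 (211 of 1098, 19.2%). The lowest were chromosome 18 (69 of 550, 12.5%, interval 10.03% to 15.6%) and chromosome 11 (218 of 1699, 12.8%, interval 11.3% to 14.5%). Neighbours in this order overlapped in their intervals, while chromosomes 14 and 11 did not. The X chromosome, at 15.6% (83 of 532), was near the 16.4% of all. In the control list chromosomes 18 and 11 had 27.01% and 21.7% control-only peaks. Across the 20 chromosomes, which share both libraries, the C28-only and control-only shares had a Pearson r of 0.26.

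**Figure D5:**
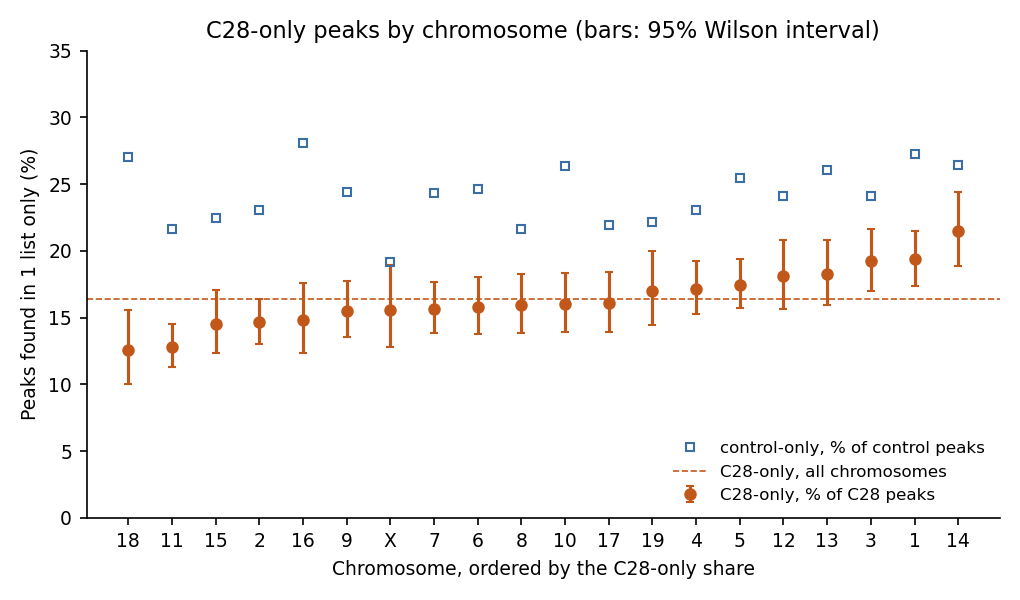
Percentage of C28 peaks that were C28-only on each chromosome, in order, with 95% Wilson intervals; squares give the control-only percentage of control peaks and the dashed line the C28-only share over all chromosomes. Values range from 12.5% to 21.5%, and the intervals of most chromosomes include 16.4%.

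RNA came from other libraries and could be compared with replicates. No gene positions in mm9 were used here, so no RNA value is tied to a peak. The RNA describes a list of genes for histone acetylation, its readers and H3K27 methylation. That list was drawn up for histone acetylation in general, not for H3K27 alone. The libraries held 16930212 to 19197376 reads assigned to genes. The labels do not say whether replicates came from separate cultures, so the spread behind each p-value may be technical. The defining germ cell RNAs were near 0, against the label of the cells. Ddx4, a germ cell helicase, had 4 reads over the 6 libraries, Dazl, which binds mRNA in germ cells, 1, and Pou5f1, a pluripotency factor, 0. Of 20 germline markers, 4 had 0 reads and 8 averaged at least 10 normalized counts, with a summed level of 4077 to 4796 with DMSO and 4159 to 4651 with C28. Of 30 blood and mast cell markers, 22 averaged at least 10, with sums of 81984 to 84576 and 77620 to 78101, and Ptprc, the leukocyte protein CD45, averaged 7527. Of 12 fibroblast markers 9 averaged at least 10, with sums of 26143 to 32925 with DMSO and 26384 to 31943 with C28. Of 11 ovarian somatic markers 4 did, with sums of 6129 to 7893 with DMSO and 5950 to 7844 with C28.

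Of 21 listed genes for histone acetylation, its readers and H3K27 methylation, limma without a block called none (adjusted p under 0.05, 19087 genes). That fit, of C28 against DMSO, called 23 genes up (0.121%) and 3 down (0.0157%). At an unadjusted p under 0.05 in limma were 2 of the 21, beside 1495 of all 19087. The 21 genes had a median log2 fold change of 0.0055, and all genes tested 0.0045. With the replicate number as a block, which paired the libraries, 1 of the 21 fell, beside 2.54% of all genes called up and 2.25% down. On recovered reads, edgeR and DESeq2 each called 0 of the 21. They called 28 of 19087 and 182 of 13161 genes that had an adjusted p. At an unadjusted p under 0.05 were 2 and 1 of the 21, beside 1392 and 999 genes in all. In bulk RNA, fewer cells of a type and less RNA per cell cannot be told apart.

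Ep300, which encodes p300, had 1835, 1795 and 1966 normalized counts with DMSO and 2262, 1954 and 1964 with C28. The log2 fold change was 0.14 (95% interval -0.05 to 0.33, n = 3 each, limma adjusted p 0.768), and the groups overlapped. Crebbp, which encodes CBP, was at 296 ± 35.3 and 340 ± 23.9 (SD, n = 3 each; limma adjusted p 0.79), also with overlap. Kat6b, another acetyltransferase, was at 339, 304 and 320 with DMSO and 446, 377 and 368 with C28. Its limma adjusted p was 0.572, and 0.0726 with the block.

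Kat2a, the acetyltransferase GCN5, was at 2180, 2712 and 2829 normalized counts with DMSO and 1643, 2371 and 2373 with C28. It was lower in each of 3 same-numbered pairs and fell with the block (log2 fold change -0.28 ± 0.05 SE, limma adjusted p 0.0128), but not without it (SE 0.16, limma adjusted p 0.764). In the fit with no block its log2 fold change was -0.11 without C28 replicate 1, the lowest library. It was -0.21 to -0.40 when any other single library was left out. DMSO replicate 1 was also the lowest of its group. Without replicate 1 in both arms, a fit added after seeing the data, the log2 fold change of Kat2a was -0.22. Kdm6b, a demethylase of H3 lysine 27, was at 742, 707 and 729 with DMSO and 874, 775 and 874 with C28. The limma adjusted p of Kdm6b was 0.598, and 0.0943 with the block. Hdac1, a deacetylase, averaged 2364 ± 77.3 in the DMSO libraries and 2330 ± 165 in the C28 libraries (SD, n = 3 each), and the 95% interval of its log2 fold change was -0.20 to 0.15.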

How the data were processed

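The authors deposited 1 peak list per H3K27ac library, with a score, a ratio (fold enrichment), −log10 p and −log10 q per peak, and 1 table of RNA values on a signal scale: gene counts divided by 1 size factor per library, since 100% of the deposited values are whole multiples of 1 read within 0.01. That table also carries the authors' log2 fold changes and adjusted p-values, not used here. The build was mm9 and the tools were Bowtie2 and Cufflinks 2.2.1, per the submitters' processing notes; no peak caller, counting tool or annotation is named there.

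Overlaps were counted in Python 3.11.15 and checked with bedtools 2.31.1. Taking fold as (n + 1)/(expected + 1) and p as the Poisson tail above n, both unknowns were solved for each peak: 99.98% of C28 and 99.96% of control peaks gave a whole n, within 0.01. That these relations made the values is inferred from this. Gene tables at hand were of another build (GRCm38.p6 promoter windows met 3.70% of C28 peaks), so no gene or sequence was assigned.

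RNA was tested on log2(value + 1) by limma 3.58.1 (R 4.3.3) with a trend and Benjamini-Hochberg adjustment, for genes that reached 1 in 3 or more libraries; edgeR 4.0.16 and DESeq2 1.42.0 ran on the recovered reads as alternatives. Same-numbered libraries deviated together (r 0.84, 0.68 and 0.70 over 10578 genes), though no label states a pairing. Only the limma fit with the replicate block took the numbers as pairs. The main limma fit, edgeR and DESeq2 did not. Scripts were tested on simulated data. Peaks named were the 10 highest by q, the 5 widest, the 5 farthest from and 3 nearest to a control peak, the 3 just outside the rule, and the 5 fullest windows (ties by summed fragments, chosen after seeing them); runs of peaks were added, and from the 21 listed genes 6 were named after their values were seen. Members, lists and tests were chosen with earlier results of these data known.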

Additional observations from a re-analysis of the deposited data

How the results depend on the processing

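The number of C28-only peaks, 3562, moved most with the threshold of the C28 list: 2361 at a −log10 q of at least 5 and 516 at 10, and, chosen after seeing the data, 966 with at least 20 fragments and 1994 at least 400 bp wide. It ranged from 3091 to 4263 when the overlap, the summit, a 1 kb margin or the control threshold defined sharing. Among C28 peaks over 250 kb from the next, the C28-only share exceeded that at 10 to 25 kb in each of these alternatives, for example 22.9% against 10.7% at −log10 q of at least 5 and 7.97% against 3.29% at 10. Chromosome 14 likewise stayed above chromosome 11. In RNA, limma called 26 genes, and 914 with the replicate block, 182 with DESeq2 and 90 without replicate 1 in both arms (added after seeing the data). Leaving out 1 library gave 0 to 23: DMSO replicates 1, 2 and 3 gave 9, 8 and 5 when omitted, and C28 replicates 1, 2 and 3 gave 23, 0 (limma, with 1207 genes at an unadjusted p under 0.05) and 8. The cause was not tested. Of the 6 genes named, Kat2a alone changed its call, with the block. RNA of genes near C28-only peaks was not run, for want of mm9 gene positions. Depth limits single peaks: at 15 fragments the interval spans 8.40 to 24.7.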

Other observations

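The cells are labelled female. Xist, the RNA that coats the inactive X chromosome, had 1 read among 108208382 over the 6 RNA libraries, in C28 replicate 3, and the Y-linked genes Ddx3y, Kdm5d, Eif2s3y and Uty had 0 each, which allows up to 3 reads (counting error only). The peak lists held 3 peaks on the Y chromosome with C28 and 1 in control.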
